A study of Rattus norvegicus with 14 samples.

Results

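The genes of 6 secreted proteins of the connective tissue matrix are described here across the fetal rat gonad: Mgp, Dcn, Bgn, Mfap4, Postn and Spp1. They were chosen by gene symbol, and each of the 6 genes had 1 probe set on the array, the set of short oligonucleotides that reads out a transcript; 10411 genes were named on the array in all. The 14 arrays formed 7 groups of 2. One group was E13 testis (embryonic day 13) kept for 3 days in organ culture, and the other groups were fresh testis at E13, E14 and E16 and fresh ovary at E13, E14 and E16. Each array carried RNA of 1 independent pool of 20 to 40 gonads, so no value belongs to a single animal. The explants lay on floating filters in CMRL 1066 medium with insulin, transferrin and albumin. No genetic change or drug is named for any group, and the sources used here give neither the rat strain nor whether the mesonephros was trimmed away.

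The gonad holds supporting cells, germ cells and steroid-producing cells within a stroma of fibroblast-like interstitial cells, vessels and, in the testis, peritubular cells that ring the cords. The stroma secretes a matrix of collagen fibres, elastic microfibrils and soluble glycoproteins. Dcn (decorin) and Bgn (biglycan) are small leucine-rich proteoglycans that bind collagen fibrils and growth factors of the TGF-beta family, and Mfap4 is a glycoprotein that associates with elastic fibres. Mgp (matrix Gla protein) is a vitamin K dependent inhibitor of calcification, and Postn (periostin) and Spp1 (osteopontin) are matricellular proteins that bind integrins on the cell surface.

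An earlier analysis of these arrays was known when the 6 genes were put together. It showed Mgp and Dcn among the larger rises in testis between E13 and E16, and Postn among the genes lower in testis than in ovary. These differences are therefore given below as values with their errors, and no test of them is claimed. Where their side of the threshold is named, that describes the fit and is no test of them. Other comparisons of the same genes share arrays with them. What led to the other 3 genes is not recorded, so the adjusted p-values given for other comparisons describe these arrays and are no independent support for the choice.

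Promoter sequences, 250 bases before to 50 bases after the start of transcription, were found in the RefSeq table of build GRCr8 for 2 of the 6 genes, Postn and Spp1. They are shown because these were the genes matched to an entry, and their choice does not rest on the results below. Capitals mark every match, on either strand, to any of 5 motifs, and no 2 matches overlap. The first motif searched was TATAAA, which places the start of transcription in many genes. Factors of the AP-1 family are known to bind the letters TGACTCA, and RUNX factors the letters AACCGCA. For SOX factors the search used the letters AACAAT, and for the steroidogenic factor NR5A1 it used the letters CAAGGTCA.
Postn, chr2:140677811-140678110, plus strand: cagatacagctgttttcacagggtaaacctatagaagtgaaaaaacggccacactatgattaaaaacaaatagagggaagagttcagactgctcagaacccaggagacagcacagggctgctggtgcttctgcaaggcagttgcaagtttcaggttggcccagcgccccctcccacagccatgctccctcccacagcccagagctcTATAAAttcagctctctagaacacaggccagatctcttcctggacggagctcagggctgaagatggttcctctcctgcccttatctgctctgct
Spp1, chr14:5619755-5620054, minus strand: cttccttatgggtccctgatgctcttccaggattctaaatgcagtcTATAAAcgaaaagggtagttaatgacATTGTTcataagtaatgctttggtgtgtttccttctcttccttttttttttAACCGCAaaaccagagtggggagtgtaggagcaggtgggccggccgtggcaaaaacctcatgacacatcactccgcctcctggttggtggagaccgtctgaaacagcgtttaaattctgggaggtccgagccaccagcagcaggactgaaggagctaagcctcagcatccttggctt
The Postn window held 1 match, a TATAAA at positions -44 to -39 from the start. The Spp1 window held a TATAAA at positions -204 to -199, a SOX match on the reverse strand (its letters appear as ATTGTT) and a RUNX match. Among all 33469 promoters of the table, 14.2% held TATAAA, 11.7% AACAAT, 1.47% AACCGCA, 4.63% TGACTCA and 1.52% CAAGGTCA. These matches describe the letters only. The entries of Mgp, Dcn, Bgn and Mfap4 were not matched.

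The values are intensities, the brightness of a probe set on a linear scale that the authors had brought to a common level on each array. Intensities of different probe sets cannot be set against each other, so each gene is compared with itself across groups. Differences are on the log2(intensity + 16) scale, which understates the change of dim probe sets. A probe set counts as passing when limma's adjusted p, over all 15866 probe sets, was under 0.05. Array medians lay between 59.6 and 69.2, and replicates correlated over probe sets with Pearson's r of 0.949 to 0.982. Amh, the Sertoli cell hormone, read 476.7 to 1092.8 in cultured, E14 and E16 testis and at most 38.5 in ovary. Xist, the RNA of the inactive X chromosome, went against the sex label in 4 arrays: replicate 2 of E16 ovary and replicate 1 of cultured, fresh E13 and fresh E14 testis. Actin signal at the 3′ end over that at the 5′ end, a measure of RNA degradation, was 2.97 in cultured testis replicate 2 and 3.34 in E16 ovary replicate 1, against 1.47 to 2.13 elsewhere. Counts of passing genes without these arrays stand beside the results. The chip identifiers in the labels fall into 3 periods, which hold different mixes of groups.

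Mgp was far brighter at E16 than at E13 in both sexes. In testis its 2 arrays read 20.6 and 6.3 at E13, 47.4 and 67.9 at E14, and 421.6 and 742.1 at E16. In ovary they read 5.8 and 0.9 at E13, 125.4 and 55.2 at E14, and 522.9 and 344.6 at E16. Cultured E13 testis read 554.0 and 761.4. The E16 and the cultured arrays were all far above the E13 and E14 arrays, with no overlap, while the arrays of testis and ovary overlapped at E14 and at E16. In pooled tissue, more cells of a type and more RNA per cell cannot be told apart. The E13 values lie at the dim end of the array.

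In testis the Mgp difference between E16 and E13 was log2 4.33 (95% interval 3.48 to 5.19, or 20.2-fold), and most of it fell between E14 and E16 (log2 2.98) rather than between E13 and E14 (log2 1.35). In ovary Mgp rose to 434 ± 126 at E16, against 3.35 ± 3.46 at E13 (SD, n = 2; log2 4.52, SE 0.39, adjusted p = 0.00187 by limma). The change of the sex difference between E13 and E16 was log2 -0.19, with an interval from -1.40 to 1.02 (adjusted p = 0.983), so a 2-fold divergence in either direction is not excluded. Testis minus ovary at E16 was log2 0.39 (adjusted p = 0.748). In the fit blocked on chip period it was log2 1.04 (adjusted p = 0.0444), so the statement on the E16 sex difference depends on how the chip periods are treated.

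**Figure D1:**
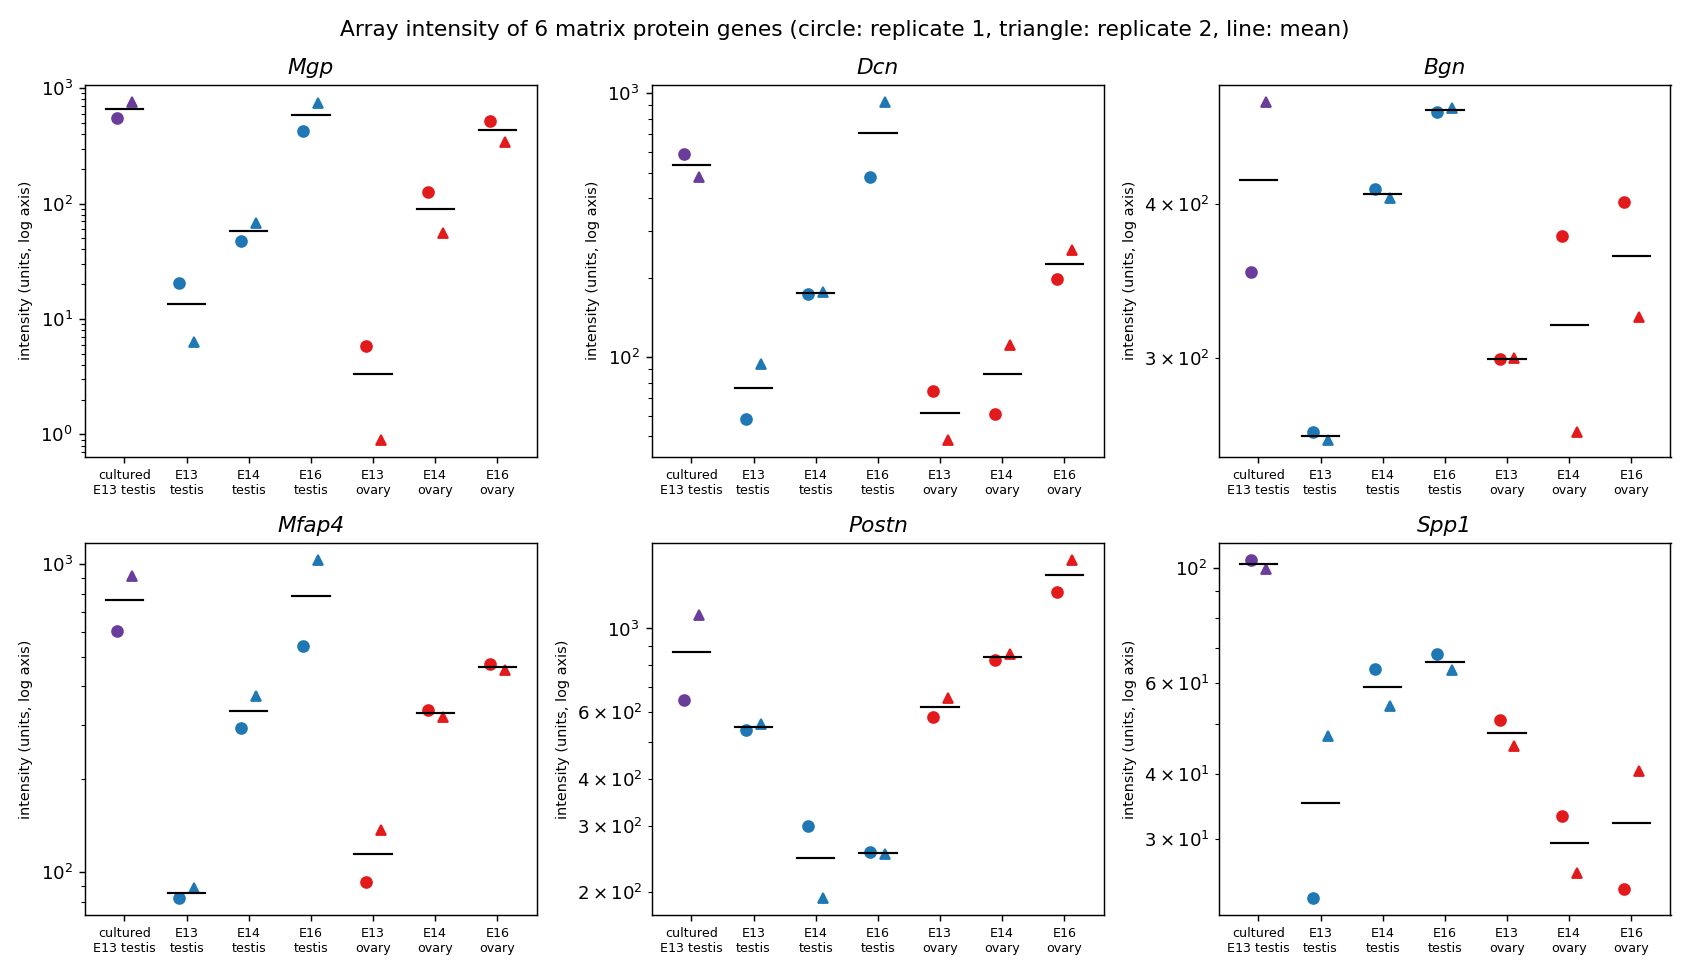
Intensity of each gene on each of the 14 arrays, on a log axis that differs between panels; circles are replicate 1, triangles replicate 2 and lines the mean of the 2 arrays. Mgp read 421.6 or more in E16 and cultured testis and 20.6 or less in E13 testis, and Postn stood at 255.1 or less in E16 testis against 1247.0 or more in E16 ovary.

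Dcn, the first of the proteoglycan genes, was brighter at E16 than at E13 in both sexes. It read 58.1 and 94.5 in testis at E13, 174.1 and 176.5 at E14, and 483.0 and 929.3 at E16. In ovary it read 74.2 and 48.6 at E13, 60.7 and 111.1 at E14, and 197.6 and 254.3 at E16. The sexes overlapped at E13, and from E14 on both testis arrays were above both ovary arrays. Testis minus ovary was log2 0.25 at E13, log2 0.95 at E14 and log2 1.52 (2.86-fold) at E16; at E16 Dcn just missed the threshold (adjusted p = 0.0516 by limma). It passed at E16 with chip batch as a random block (adjusted p = 0.0235) and when probe sets with a mean under 50 were left out (adjusted p = 0.0271). It also passed with the replicate number as a block. It did not pass with chip period as a block, with an offset of 1 in place of 16 or with only the groups compared. With 1 array left out, the E16 difference ran from log2 1.05 to log2 1.98.

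Within each sex Dcn was higher at E16 than at E13. The testis difference was log2 2.92 (7.59-fold), of which log2 1.84 fell between E14 and E16. The ovary difference was log2 1.65 (3.15-fold, adjusted p = 0.051). It passed with the filter on a mean of 50 (adjusted p = 0.0276) and with the replicate number as a block (adjusted p = 0.0315). It did not pass with chip period or chip batch as a block, with an offset of 1 or with only the groups compared. With 1 array left out, the ovary difference ran from log2 1.41 to log2 1.90. Markers of the other testis cells moved beside Mgp, Dcn and Mfap4 between E16 and E13 testis. Of 6 fetal Leydig cell markers 5 were higher, with sums of 4106.6 to 8025.0 at E16 and 181.4 to 208.3 at E13, and of 4 measured Sertoli cell markers of 6, 3 were higher, with sums of 2869.7 to 2904.7 at E16 and 449.5 to 572.1 at E13. In ovary 0 of the 6 and 0 of the 4 passed between E16 and E13. Between testis and ovary at E16, where Dcn was brighter in testis, 6 of 6 Leydig and 3 of 4 Sertoli markers were higher in testis. The part of these cells in the results was not tested. The change of the sex difference between E13 and E16 was log2 1.27 (interval 0.21 to 2.33) and did not pass over all probe sets (adjusted p = 0.642).

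Bgn, the close relative of Dcn, passed in none of the 10 comparisons by limma. Over all 14 arrays it read 257.5 at the lowest, 364 at the median and 484.0 at the highest. In testis the arrays of a group lay close together, at 261.2 and 257.5 at E13, 411.2 and 404.4 at E14, and 474.6 and 478.8 at E16. In ovary they read 299.1 and 299.8 at E13, 376.6 and 261.2 at E14, and 401.6 and 323.7 at E16. The testis ages did not overlap, while the E14 and E16 ovary arrays did. E16 minus E13 was log2 0.84 in testis (adjusted p = 0.107) and log2 0.26 in ovary (adjusted p = 0.768), and neither passed. Blocked on chip period, the testis difference was log2 1.05 and passed (adjusted p = 0.0421).

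Mfap4, the elastic fibre glycoprotein, rose in both sexes. It read 82.2 and 88.4 in testis at E13, 293.9 and 371.3 at E14, and 541.1 and 1029.7 at E16. In ovary it read 92.6 and 136.3 at E13, 334.7 and 318.8 at E14, and 474.0 and 452.2 at E16. At E14 the arrays of both sexes were above all E13 arrays and overlapped each other, and at E16 both testis arrays were above both ovary arrays. E16 minus E13 was log2 2.91 in testis (7.54-fold, SE 0.30, adjusted p = 0.00159 by limma) and log2 1.90 in ovary (3.72-fold, SE 0.30, adjusted p = 0.0161). The testis call held in all 14 fits that left out 1 array. The ovary call was lost without E13 ovary replicate 1 or 2 (adjusted p = 0.206 and 0.0805) and without E16 ovary replicate 1 or 2 (adjusted p = 0.0719 and 0.0878).

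The testis difference of Mfap4 was split over both intervals. The step from E13 to E14 was log2 1.77 (adjusted p = 0.0701) and that from E14 to E16 log2 1.14 (adjusted p = 0.434). The first step passed in the fit blocked on chip period (adjusted p = 0.0152) and without either E16 testis array (adjusted p = 0.0485 in both fits). The sexes were not told apart at any age (adjusted p = 0.777 at E13, 0.997 at E14 and 0.372 at E16). At E16 the interval of testis minus ovary ran from 0.02 to 1.33 on the log2 scale.

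Postn was lower at E16 than at E13 in testis and higher in ovary. In testis it read 537.5 and 558.5 at E13, 299.1 and 193.3 at E14, and 255.1 and 253.1 at E16. In ovary it read 584.0 and 655.8 at E13, 824.6 and 858.3 at E14, and 1247.0 and 1517.6 at E16. The testis arrays were highest at E13 and the ovary arrays lowest at E13, and at every age both testis arrays were below both ovary arrays. Testis minus ovary was log2 -0.17 at E13, log2 -1.74 at E14 and log2 -2.37 at E16, which makes E16 testis 5.15-fold lower than E16 ovary on this scale. The change of the sex difference between E13 and E16 was log2 -2.19 (95% interval -2.98 to -1.41, as an error).

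Within a sex, the Postn differences did not pass in the fit to all arrays. E16 minus E13 was log2 -1.06 in testis (adjusted p = 0.0929) and log2 1.13 in ovary (adjusted p = 0.071). The ovary difference passed with the filter on a mean of 50 (adjusted p = 0.0419). It did not pass with chip period, chip batch or the replicate number as a block, with an offset of 1 or with only the groups compared. With 1 array left out, the ovary difference ran from log2 0.99 to log2 1.27. In testis the whole difference stood at E14 (log2 -1.13 from E13, adjusted p = 0.198), and E16 minus E14 was log2 0.07 with an interval from -0.49 to 0.63. In chip period 1, which holds 1 testis and 1 ovary array at each of E14 and E16, testis minus ovary was log2 -2.06 at E14 and log2 -2.51 at E16. In the order of levels, the step from E16 ovary to cultured testis and the steps from E14 ovary to E13 ovary, to E13 testis and to E16 testis were without overlap; cultured testis overlapped E14 ovary, and E16 testis overlapped E14 testis. Of 11 measured markers of mesonephros and kidney tubule of 12, the keratin Krt19 alone passed between testis and ovary at E16 (log2 -2.89, adjusted p = 0.00299), at 166 ± 27.5 in testis and 1354 ± 410 in ovary (SD, n = 2). The summed intensity of the 11 was 496.5 to 513.7 in testis and 1370.9 to 1984.6 in ovary, and their median difference was log2 0.02. The other 10 genes did not pass, none of the 10 was above 125.8 on any array, and the part of such cells in the Postn difference was not tested. Of 4 measured pre-granulosa markers of 5, 2 were lower in testis at E16, with sums of 196.3 to 221 in testis and 643.8 to 1040.3 in ovary, and their part was not tested either.

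**Figure D2:**
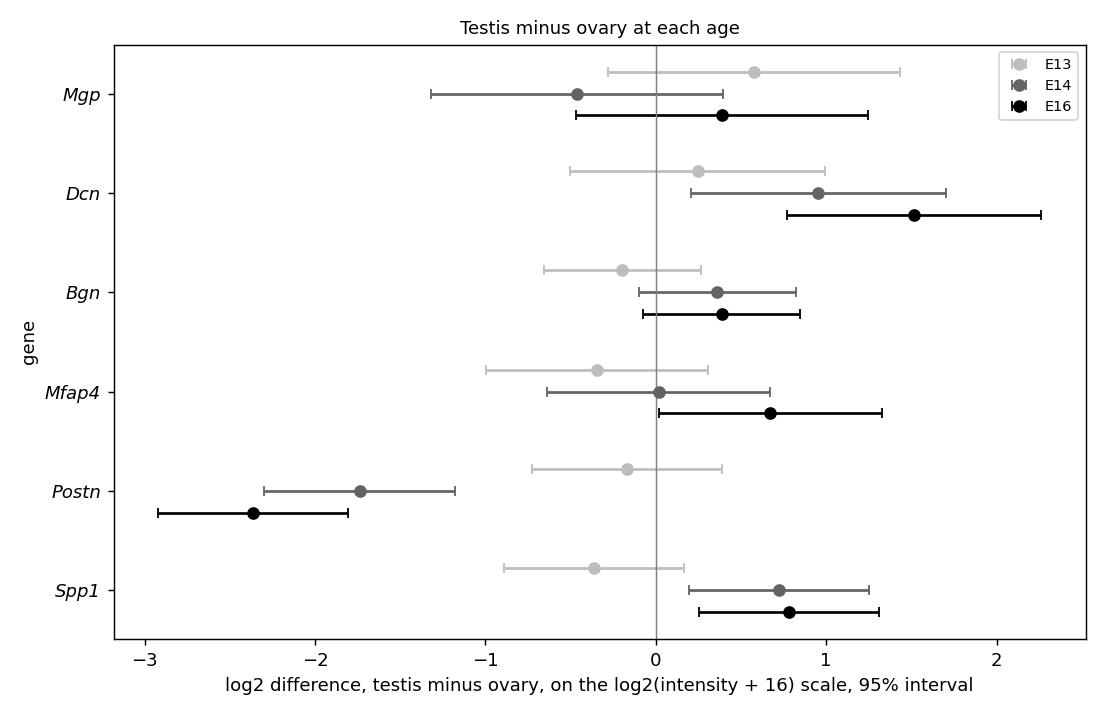
Testis minus ovary at E13, E14 and E16 for each gene, as log2 difference with its 95% interval from the fit to all 14 arrays. Postn moved to log2 -2.37 and Dcn to log2 1.52 at E16, against log2 -0.17 and log2 0.25 at E13.

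Spp1 was brighter in testis than in ovary at E14 and E16. It read 23.1 and 47.3 in testis at E13, 63.9 and 54.0 at E14, and 68.2 and 63.5 at E16. In ovary it read 50.9 and 45.3 at E13, 33.2 and 25.8 at E14, and 24.0 and 40.5 at E16. At E14 and E16 both testis arrays were above both ovary arrays, and at E13 the sexes overlapped. Testis minus ovary was log2 0.72 at E14 (adjusted p = 0.473) and log2 0.78 at E16 (adjusted p = 0.172), and the change of that difference between E13 and E16 was log2 1.15 (interval 0.40 to 1.89, adjusted p = 0.424); none of these passed.

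Mgp, Dcn, Mfap4 and Spp1 were higher after 3 days of culture. Against fresh E13 testis, 4 of the 6 genes rose in cultured E13 testis and 0 fell, beside 1.39% of all probe sets that changed. Mgp and Dcn were chosen for a rise from these same fresh E13 testis arrays. Counts of the 6 genes in this comparison, and the adjusted p-values of Mgp and Dcn, are therefore descriptions and no support. Sertoli and Leydig cell markers were higher too. Of 4 measured Sertoli markers 4 passed, with sums of 2661.6 to 3399.8 in cultured and 449.5 to 572.1 in fresh E13 testis, and of 6 Leydig markers 4 passed, with sums of 3405.7 to 4466.3 in cultured and 181.4 to 208.3 in fresh E13 testis; their part in these results was not tested. Mgp averaged 658 ± 147 in cultured and 13.4 ± 10.1 in fresh E13 testis (SD, n = 2; log2 4.54, SE 0.39, adjusted p = 0.00045 by limma). Dcn read 590.0 and 480.2 in the cultured arrays, all above the E14 testis arrays, and differed from fresh E13 testis by log2 2.60 (adjusted p = 0.00447). Mfap4 read 604.7 and 917.4 in culture (log2 2.91, adjusted p = 0.000992). Replicate 1 of cultured and of fresh E13 testis had discordant Xist, and cultured replicate 2 had an actin ratio of 2.97. Without the arrays with discordant Xist, which leaves single arrays in both groups, Mgp, Dcn and Mfap4 differed by log2 5.12, 2.17 and 3.16. Bgn, at 352.2 and 484.0, and Postn, at 646.1 and 1085.2, were above both fresh E13 arrays without passing (adjusted p = 0.212 and 0.366). The arrays of all 6 genes were higher in culture without overlap, while 39.5% of all probe sets did not overlap in one or the other direction.

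Spp1 had its highest level in culture. The cultured arrays read 103.4 and 99.4, and the next highest array, an E16 testis, read 68.2. The difference from fresh E13 testis was log2 1.24 (2.36-fold, SE 0.24, adjusted p = 0.0317), a call that held in 5 of 14 fits with 1 array left out and was lost without the 2 arrays of high actin ratio (adjusted p = 0.15). It was lost without cultured testis replicate 1 or 2 (adjusted p = 0.106 and 0.169), without E13 testis replicate 1 (adjusted p = 0.18) and in the fit blocked on chip period (adjusted p = 0.0706). Macrophages are a known source of Spp1. Of 12 measured macrophage and white blood cell markers of 14, Lyz2, a lysozyme, was higher in culture (log2 1.14, adjusted p = 0.0313) and 11 did not pass. Their summed intensity was 891.8 to 987.9 in cultured and 585.1 to 588.6 in fresh E13 testis, and their part in the Spp1 result was not tested. Red blood cell markers split the cultured replicates, with a sum of 9181.4 in replicate 1 and 1038.7 in replicate 2.

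Set against E16 testis, which is as old as the explants at harvest, cultured testis differed in Postn. Postn read 646.1 and 1085.2 in culture and 255.1 and 253.1 in E16 testis (log2 1.66, interval 1.10 to 2.22, adjusted p = 0.0447 by limma). That is 1 of 6 genes, beside 0.0945% of all probe sets that changed. Postn was chosen for lying lower in testis than in ovary, and that comparison at E16 uses these same testis arrays. The count and the adjusted p of Postn are therefore descriptions and no support. The direction was the same within chip period 1 (log2 2.03) and within chip period 2 (log2 1.29), each with 1 cultured and 1 E16 testis array. The call was lost in 13 of the 14 fits that left out 1 array, the exception being that without cultured testis replicate 1; without cultured replicate 2, which had an actin ratio of 2.97, the adjusted p was 0.319. For Mgp, Dcn, Bgn and Mfap4 the culture arrays overlapped those of E16 testis. Their differences were log2 0.21 (interval -0.65 to 1.07), log2 -0.32 (-1.07 to 0.42), log2 -0.20 (-0.66 to 0.26) and log2 -0.00 (-0.66 to 0.65), so differences of up to about 2-fold are not excluded for Mgp and Dcn. Spp1 was log2 0.52 higher in culture, without overlap and without passing (adjusted p = 0.76).

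**Figure D3:**
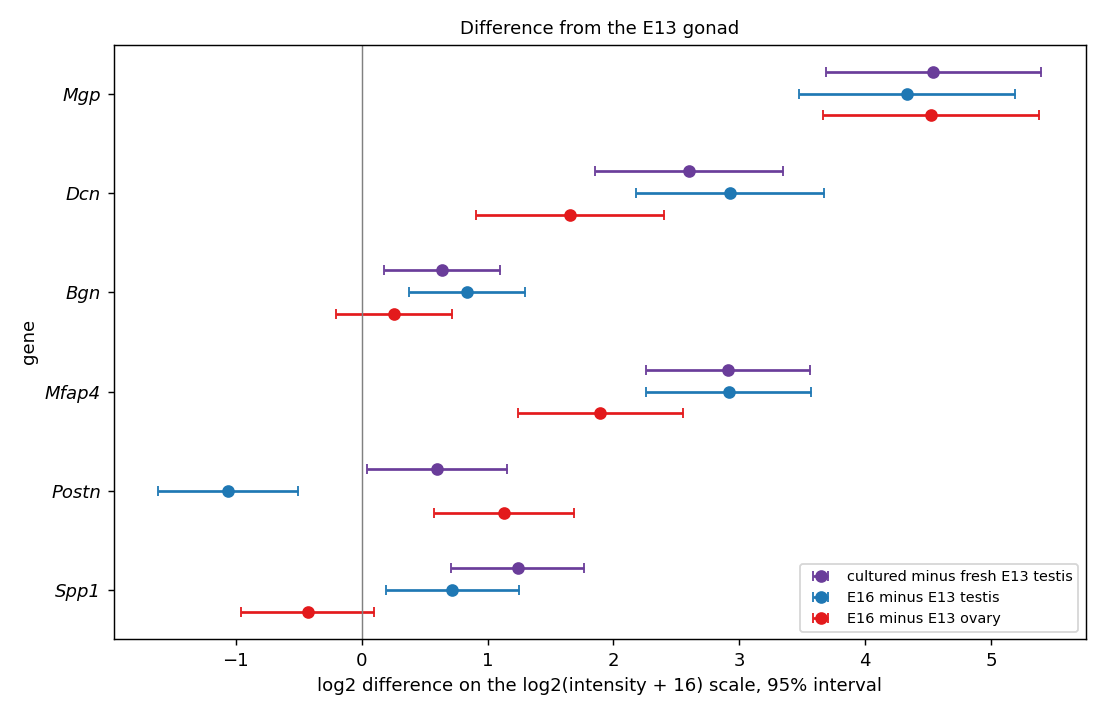
Difference of cultured E13 testis from fresh E13 testis, of E16 from E13 testis and of E16 from E13 ovary for each gene, as log2 difference with its 95% interval. Mgp lies beyond log2 4 in all 3 comparisons, and Postn lies at log2 -1.06 in E16 testis against 0.60 in culture and 1.13 in ovary.

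Counts of passing genes leave out a gene in the comparisons that led to its choice. Between E16 and E13 testis, Mgp and Dcn aside, 1 of the other 4 genes passed, Mfap4, higher, beside 0.945% of all probe sets. Between E16 and E13 ovary 2 of 6 passed, both higher (Mgp and Mfap4), beside 0.889%. Between testis and ovary, Postn aside, 0 of 5 passed by limma at E13 (0.0126% of probe sets), at E14 (0.139%) and at E16 (1.74%); an unadjusted p under 0.05 was found for 0, 2 and 3 of the 5, beside 1236, 1270 and 2062 of the 15866 probe sets. For the change of the sex difference between E13 and E16, 0 of these 5 passed (0.145%). An unadjusted p under 0.05 was found by limma for 3 (Dcn, Mfap4 and Spp1), among 1030 of 15866 probe sets. That change contains the testis rise for which Mgp and Dcn were chosen, so its count is a description and no support. Between E14 and E13 testis, Mgp and Dcn aside, 0 of 4 passed by limma (0.0693% of probe sets), and 4 had an unadjusted p under 0.05, among 1141 of 15866 probe sets. Of the 4, Bgn, Mfap4 and Spp1 were higher at E14 and Postn was lower. The E13 and E14 testis arrays are also part of the sex differences of Postn. Between E16 and E14 testis 0 of the same 4 passed (0.12%), and 1 had an unadjusted p under 0.05, among 818 of 15866 probe sets.

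Groups of 2 arrays often do not overlap, and the members are read against that background. Between E16 and E13 the arrays of all 6 genes were apart in testis (41.3% of all probe sets) and in ovary (41.4%). The testis count includes Mgp and Dcn, which were chosen for that rise. Between E14 and E13 testis all 6 were apart too (35.6%), and between E16 and E14 testis 4 (34.8%), again with Mgp and Dcn among them. Between testis and ovary 4 were apart at E13 (46.2%), 4 at E14 (34.6%) and 5 at E16 (41.8%). At each age these include Postn, which was chosen for its sex difference. Where a chosen gene is included in this way, the number apart is a description and no support. Between cultured and E16 testis 2 were apart, Postn and Spp1 (35.3%). The E16 testis arrays are part of the sex difference of Postn, so this number is a description too. The median log2 difference of the 6 genes between E16 and E13 was 1.88 in testis and 1.39 in ovary, beside -0.02 in each for all probe sets. The testis median includes Mgp and Dcn, chosen for their rise there, so it is a description only. Without the 4 arrays with discordant Xist, which leaves single arrays for cultured, E13 and E14 testis and E16 ovary, Postn passed between cultured and E16 testis, and 0 of these counted genes passed in the other comparisons; Postn between E16 testis and ovary, not counted here, kept its call. Without the 2 arrays with a high actin ratio, the count was 1 between E16 and E13 ovary (Mgp), 3 between cultured and fresh E13 testis (Mgp, Dcn and Mfap4) and 0 between cultured and E16 testis.

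Most other genes of the matrix did not pass, as was the case for most probe sets on the array. From 5 lists with 72 genes, 61 were measured. Between E16 and E13 testis 2 rose, 0 fell and 59 did not pass, with a median log2 difference of 0.10. Of all probe sets, 0.945% passed in that comparison. The 2 were Ogn (osteoglycin), another leucine-rich proteoglycan (246 ± 89.7 at E16 and 51.2 ± 8.41 at E13, log2 1.93, adjusted p = 0.00615), and the growth factor gene Tgfb3 (120.2 ± 17.2 and 36.9 ± 0.707, log2 1.36, adjusted p = 0.0214). In the list of proteoglycans and decorin partners, which holds both, the median was log2 0.63 over 10 measured genes. Between testis and ovary at E16, Ogn was higher in testis (log2 1.26, adjusted p = 0.0386), and Eln, the gene of elastin, was lower. Eln stood at 51.2 ± 0.212 in testis and 152 ± 4.17 in ovary at E16 (SD, n = 2; log2 -1.33, adjusted p = 0.00866). It rose in ovary between E13 and E16 (log2 1.73, adjusted p = 0.00419), while its testis difference did not pass (log2 0.80, adjusted p = 0.119).

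In the cultured testis, Tgfb3 was the 1 of 61 genes that rose against fresh E13 testis (log2 1.10, adjusted p = 0.0475), and Ogn did not pass (log2 0.83, adjusted p = 0.192). Of all probe sets, 1.39% passed there. The lists of matricellular glycoproteins (13 measured), of mineral and vitamin K dependent proteins (11) and of matrix proteases and inhibitors (12) had 0 genes passing in all 10 comparisons. That of elastic fibre proteins (15) had Eln alone. Over all probe sets, 0.0126% to 1.74% passed in these comparisons. Vkorc1 and Ggcx, the enzymes that regenerate and use the vitamin K needed to activate Mgp, read 369.1 to 627.2 and 87.8 to 145.7 in fresh testis and 376.8 to 571.1 and 87.6 to 147.1 in ovary. Of 5 measured cartilage and bone markers of 8, Bglap (osteocalcin) was at most 5.0 and Ibsp (bone sialoprotein) at most 11.8 on any array. The others reached 45.8 (Col10a1), 71.7 (Acan) and 114.4 (Col2a1). Alpl, of the list of mineral proteins, reached 66.5 in E16 ovary. At E16, where Dcn and Ogn were brighter in testis, 5 of 10 smooth muscle and peritubular markers were higher in testis than in ovary (Acta2, Tagln, Myl9, Tpm1 and Tpm2). Of all probe sets, 1.74% passed there. The summed intensities of the 10 markers were 3066 to 3387.6 in testis and 1452.8 to 1751.1 in ovary. Between E16 and E13, 1 of the 10 was higher in testis and 0 in ovary, and in cultured against fresh E13 testis 0 passed, although Dcn was higher in all 3. The part of these markers in the Dcn difference was not tested.

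To see which genes shared these patterns, group means were centred over the 7 groups and compared as the mean absolute gap in log2. Dcn lay closest to Aard (gap 0.23), one of the Sertoli cell markers used above, to Igfbp7, a secreted binding protein (0.28), and to Vstm4 (0.29), against a median gap of 1.03 over all named probe sets that were bright enough. Mfap4 lay closest to a probe set of Enpep, a membrane peptidase with 2 probe sets (0.21), and to Col6a3, a chain of collagen VI (0.25). Postn lay closest to a probe set of Apoe, a lipid carrier with 2 probe sets (0.18), then to Sat1 (0.31) and Tst (0.32), against a median of 0.71. For Mgp the nearest, a probe set of Col6a2, which has 2, and those of Mfap4 and Dcn, were 0.92 to 0.94 away, against a median of 1.78. Bgn lay closest to Alkbh6 (0.06), against a median of 0.28, and Spp1 to a probe set of Pea15 (0.11), against 0.42. Among the 6 genes, Dcn and Mfap4 were 0.41 apart and Dcn and Postn 1.44. All points share the same 14 arrays.

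**Figure D4:**
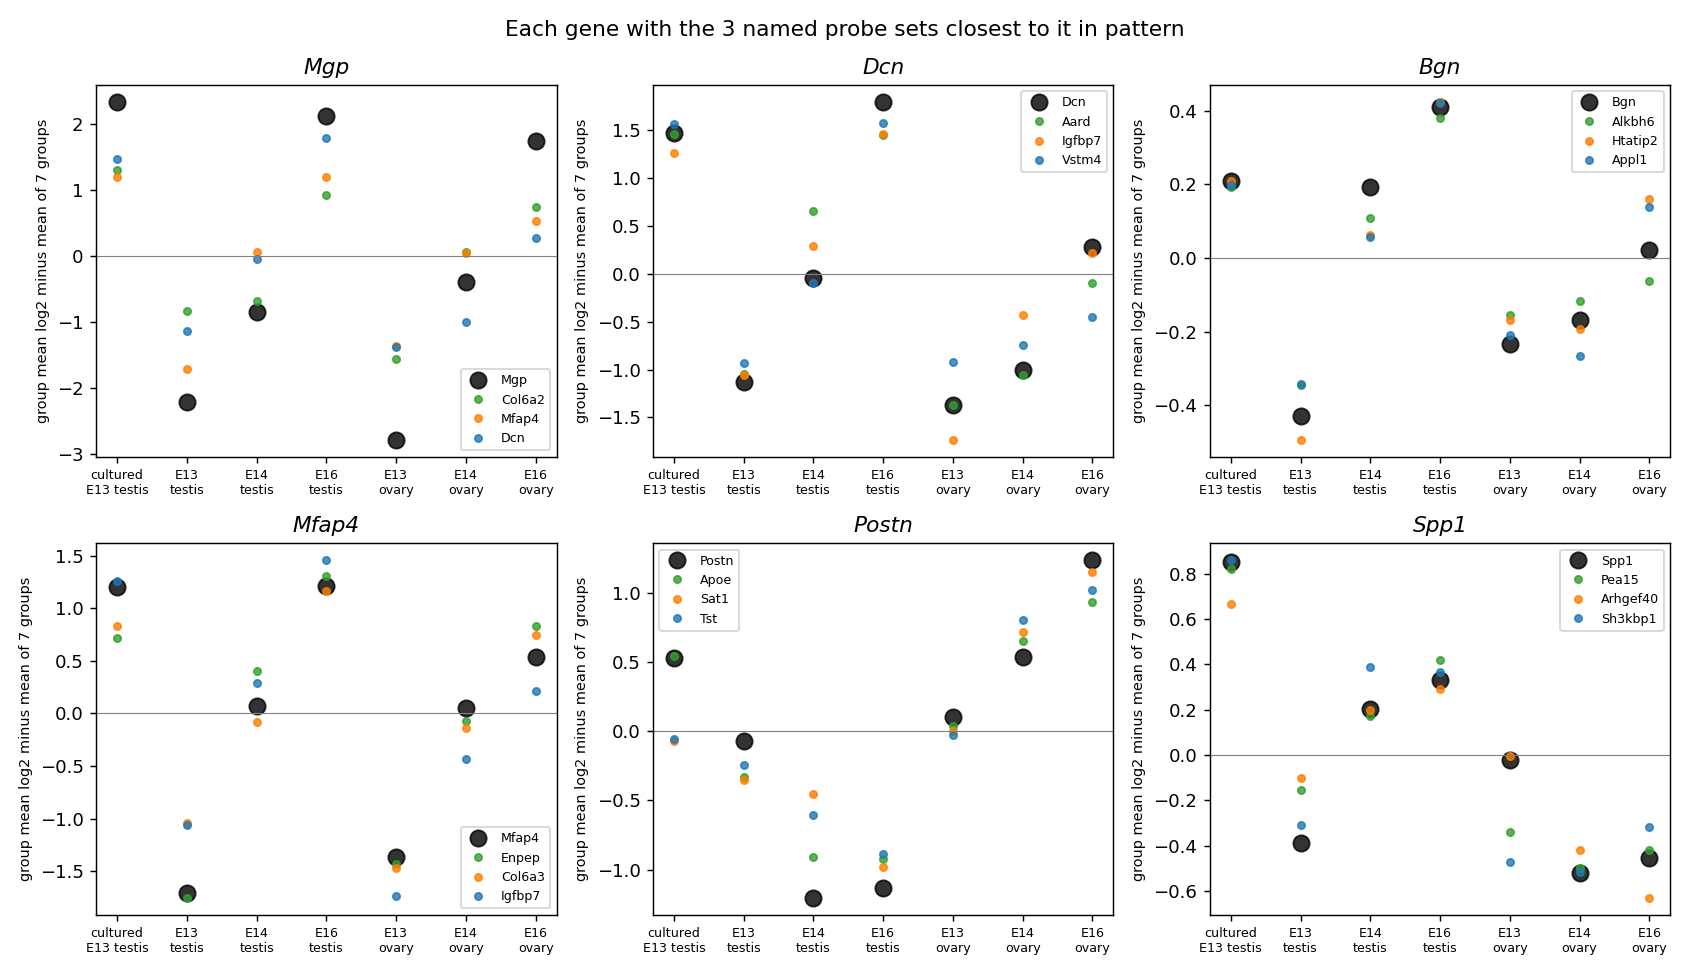
Group means of each gene (large black dots) and of the 3 named probe sets closest to it (small dots), in log2 and centred on the mean of the 7 groups. The mean gap between Postn and the nearest probe set of Apoe, which has 2, is 0.18, and the 3 genes nearest to Mgp lie 0.92 to 0.94 from it.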

How the data were processed

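RNA of pooled fetal rat gonads was hybridised to 14 single-colour Affymetrix arrays, labelled by standard Affymetrix procedures per the labels' protocols. The deposited values are linear intensities, 1 per probe set and array, which the authors had scaled: the mean after trimming 2% at each end was 125 on all arrays. The summarising software is not given in the sources used here. Of 15923 probe sets, 57 controls were left out. Names came from the platform annotation, and gene identifiers of all 6 genes were found in RefSeq (GRCr8).

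Values were analysed as log2(intensity + 16). One model with a mean for each of 7 groups used every array (limma 3.58.1, R 4.3.3; 7 residual and 4.16 prior degrees of freedom), and 10 comparisons were tested with Benjamini-Hochberg adjustment over 15866 probe sets. The script was tested on simulated data. Members, lists, tests and most alternatives were chosen with earlier results of these data known; 2 alternatives, without arrays of discordant Xist or high actin ratio, were added after seeing the data. Listed genes with several probe sets are given by the brightest, up to 4 passing genes are named per list and comparison, and the 3 closest in pattern (mean intensity of at least 50) are named per gene. Chip periods (3) and chip batches (8) were read from the form of the chip identifiers in the labels and may not match hybridisation batches. The labels call the 2 pools of a group independent. The labels do not say that replicate numbers pair groups; the deviations of same-numbered arrays correlated at -0.05 to 0.53 over 21 pairs of groups, and 15 were over 0.1. The 6 that were not are the pairs with E13 ovary, whose arrays both lie in chip period 3. In every other group replicate 2 lies in chip period 1 and replicate 1 in period 2 or 3. Replicate number and chip period thus run together in those groups, where same-numbered arrays share a deviation. The main fit blocks on neither. Replicate number was not taken as a pairing, and fits with it or with chip period as a block are given as alternatives. Precision is limited by 2 arrays per group.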

Additional observations from a re-analysis of the deposited data

Results flagged for a closer look

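The change of the Postn sex difference between ages was picked out because it passed in the fit to all arrays: testis minus ovary at E16 minus the same at E13 was log2 -2.19. The call is no test, given how Postn was chosen, and it is a narrow one. It held in 4 of 14 fits with 1 array left out and was lost with an offset of 1, with chip period as a block, with the replicate block and without the 4 arrays with discordant Xist, with log2 values of -2.33 to -2.05 in the fits that left out 1 array. Dcn, Mfap4 and Spp1 had intervals of the same change that lay above 0 (0.21 to 2.33, 0.09 to 1.94 and 0.40 to 1.89) without passing. The testis arrays read 255.1 and 253.1 at E16 and 537.5 and 558.5 at E13, and the ovary arrays 1247.0 and 1517.6 at E16 and 584.0 and 655.8 at E13, so all 4 testis arrays and all 4 ovary arrays lay in opposite order between the ages. Since Postn was chosen for its sex difference, this is a description. No group had enough arrays to look for outlying samples.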

How the results depend on the processing

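Of 540 member differences under settings other than leaving out an array, 484 kept direction and side of the threshold, 32 lost the call, 15 gained it and 9 turned sign, none of them called; of 840 with 1 array left out, the numbers were 766, 48, 11 and 15. Counts of passing members, which here include Mgp, Dcn and Postn in the comparisons that led to their choice and are descriptions there, moved as follows, with the cause not tested. E14 testis against ovary had 1 and fell to 0 with an offset of 1, chip period as a block, only the groups compared, or without the 4 arrays with discordant Xist. E16 testis against ovary had 1 and gave 2 with the filter on a mean of 50, chip period, chip batch, or the replicate block. E14 against E13 testis had 0 and gave 1 with the filter, chip batch or the replicate block and 2 with chip period. E16 against E14 testis had 1 and gave 0 with an offset of 1, only the groups compared or without the 4 arrays, and 2 with chip period or chip batch. E16 against E13 testis had 3 and gave 4 with chip period, 2 with only the groups compared and 0 without the 4 arrays. E16 against E13 ovary had 2 and gave 4 with the filter, 3 with the replicate block, 1 with only the groups compared or without the 2 arrays with a high actin ratio, and 0 without the 4 arrays. The change of the sex difference had 1 and gave 0 with an offset of 1, chip period, the replicate block or without the 4 arrays. Cultured against fresh E13 testis had 4 and gave 3 with an offset of 1, chip period, only the groups compared or without the 2 arrays, and 0 without the 4 arrays. Cultured against E16 testis had 1 and gave 0 with an offset of 1, chip period, the replicate block, only the groups compared or without the 2 arrays.

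With 1 array left out, the counts ranged from 0 to 0 (E13 sex), 0 to 1 (E14 sex), 1 to 2 (E16 sex), 0 to 1 (testis E13 to E14 and E14 to E16), 3 to 3 (testis E13 to E16), 1 to 3 (ovary), 0 to 1 (change of the sex difference), 3 to 4 (cultured against E13) and 0 to 1 (cultured against E16). Sign turned for Dcn in the E13 sex difference (log2 -0.029) and Mgp in the E14 sex difference (log2 0.19) and the change of the sex difference (log2 0.086) with chip period, for Mgp in that change (log2 0.086) and Postn in E16 against E14 testis (log2 -0.059) with chip batch, for Bgn (log2 0.021) and Mfap4 (log2 0.29) in culture against E16 testis without the 4 arrays, and for Mgp in the change (log2 0.10) and in culture against E16 testis (log2 -0.015) without the 2 arrays. Leaving out 1 array turned the sign of uncalled differences, whose log2 values ranged from -0.043 to 0.53 for Dcn in the E13 sex difference, -0.96 to 0.035 for Mgp and -0.14 to 0.18 for Mfap4 in the E14 sex difference, -0.011 to 0.78 for Mgp in the E16 sex difference, -0.22 to 0.37 for Postn in E16 against E14 testis, -0.58 to 0.21 for Mgp in the change of the sex difference, and in culture against E16 testis -0.19 to 0.61 for Mgp, -0.79 to 0.14 for Dcn, -0.42 to 0.021 for Bgn and -0.46 to 0.45 for Mfap4. The replicate block, whose numbers the labels do not tie to a shared source, moved Postn in culture against E16 testis to an adjusted p of 0.0533, Dcn in the E16 sex difference to 0.0373, Dcn in E16 against E13 ovary to 0.0315 and Mfap4 in E14 against E13 testis to 0.033, and the change of the Postn sex difference no longer passed. Over all probe sets, counts over the settings ran from 0 to 2 (E13 sex, 2 reported), 0 to 93 (E14 sex, 22), 11 to 594 (E16 sex, 276), 0 to 36 (testis E13 to E14, 11), 1 to 31 (E14 to E16, 19), 6 to 252 (E13 to E16, 150.0), 0 to 276 (ovary, 141), 0 to 46 (change of the sex difference, 23), 5 to 378 (cultured against E13, 221) and 1 to 72 (cultured against E16, 15).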
